A study of Mus musculus with 12 samples.

Results

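Mouse genes for conjugating and carbonyl-metabolising enzymes were followed across kidney tissue, cultured renal progenitor cells and kidney organoids. The set held every gene whose symbol begins with Ugt1a, Ugt2, Ugt3a, Ugt8, Sult, Ces and a digit, or Akr1, and for which the array carries a probe set annotated to that gene alone. There were 51 such genes among 18193 genes with a probe set of that kind. RNA was measured on 12 Affymetrix mouse arrays in 6 groups of 2, which the labels call biological replicates. The groups were kidney tissue, progenitor cells cultured on fibroblast feeder cells, and organoids made in a 3D Matrigel system, each from medulla and from cortex. The labels used here give no strain, age or sex and no genetic change or drug treatment for any group. They do not say whether feeder cells were removed before RNA was taken, nor whether the 3 stages share animals, so p-values measure the spread between these arrays.

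These enzymes prepare steroids, drugs, bile acids and reactive carbonyls for excretion. UDP-glycosyltransferases (Ugt genes) attach a sugar, mostly glucuronic acid from UDP-glucuronate, and sulfotransferases (Sult genes) attach sulfate from the donor PAPS. Carboxylesterases (Ces genes) cleave esters and amides, including many prodrugs and triglycerides. The Akr1 aldo-keto reductases reduce aldehydes, sugars and the keto groups of steroids and prostaglandins with NADPH. In the kidney much of this work is done in the proximal tubule, which secretes the conjugates into urine.

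Values are log2 of the MAS5 signal plus an offset of 15.1473 signal units, on which a signal of 0 reads 3.92. The array medians lay between 6.19 and 6.75, and no detection calls were used, so that a value near 4 means only that the signal was small. Signals of different probe sets were not compared with each other. Of the 51 genes, 35 exceeded the median of both arrays in 1 or more of the groups and were tested. The other 16 stayed between 3.94 and 6.87 on every array and were not tested: Akr1c6, Akr1cl, Ces1c, Ces2a, Ces2f, Ces4a, Sult1c1, Sult1e1, Sult2a2, Sult2a8, Sult3a1, Ugt2a3, Ugt2b1, Ugt2b35, Ugt2b36 and Ugt2b37. Among the untested genes, Ugt2b37 was at 5.25 and 6.02 in medulla and 6.87 and 6.26 in cortex tissue and reached no more than 4.32 on a culture array. Akr1c6, a mouse 17beta-hydroxysteroid dehydrogenase, did not exceed 5.29 on any array.

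Proximal tubule markers separated tissue from cultures. In such bulk samples fewer cells of a type cannot be told apart from less RNA per cell. The summed unlogged signal of 12 proximal tubule markers was 160911 to 220592 in medulla tissue and 222229 to 235271 in cortex tissue. It was 366 to 394 in medulla and 232 to 312 in cortex progenitor cells, and 2264 to 3338 in medulla and 4252 to 4696 in cortex organoids. The tissue labelled medulla thus carried nearly as much proximal tubule signal as the cortex. In organoids of each region 3 of the 12 proximal tubule markers exceeded both array medians. In organoids against progenitor cells 5 of 11 tested markers rose and 3 fell (28.1% and 44.3% of all tested genes). Their median log2 difference was 0.30. Intercalated cell markers (4 measured) summed to 6949 to 7896 in medulla and 7813 to 8504 in cortex tissue. They summed to 80.1 to 114.1 in progenitor cells, and to 3604 to 3894 in medulla and 6669 to 6777 in cortex organoids. Hepatocyte markers (3 measured) summed to 7059 to 10230 in medulla tissue and 10118 to 10945 in cortex tissue. On the culture arrays the hepatocyte markers summed to between 16.3 and 69.0. The organoid arrays also stood apart in their spiked poly-A controls, with a median log2 signal of 1.21 to 1.88, against 7.03 to 7.37 on progenitor arrays and 7.96 to 8.83 on tissue arrays. Their Gapdh 3' minus 5' difference was 0.867 to 1.67, against -0.405 to -0.298 on progenitor arrays and -0.233 to 0.183 on tissue arrays. The actin 3' minus 5' difference ran otherwise, at -0.0015 to 0.149 on organoid arrays, 0.163 to 0.187 on progenitor arrays and 0.938 to 1.63 on tissue arrays. The part of these differences in the stage comparisons below was not tested, and they cannot be told apart from stage.

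**Figure D1:**
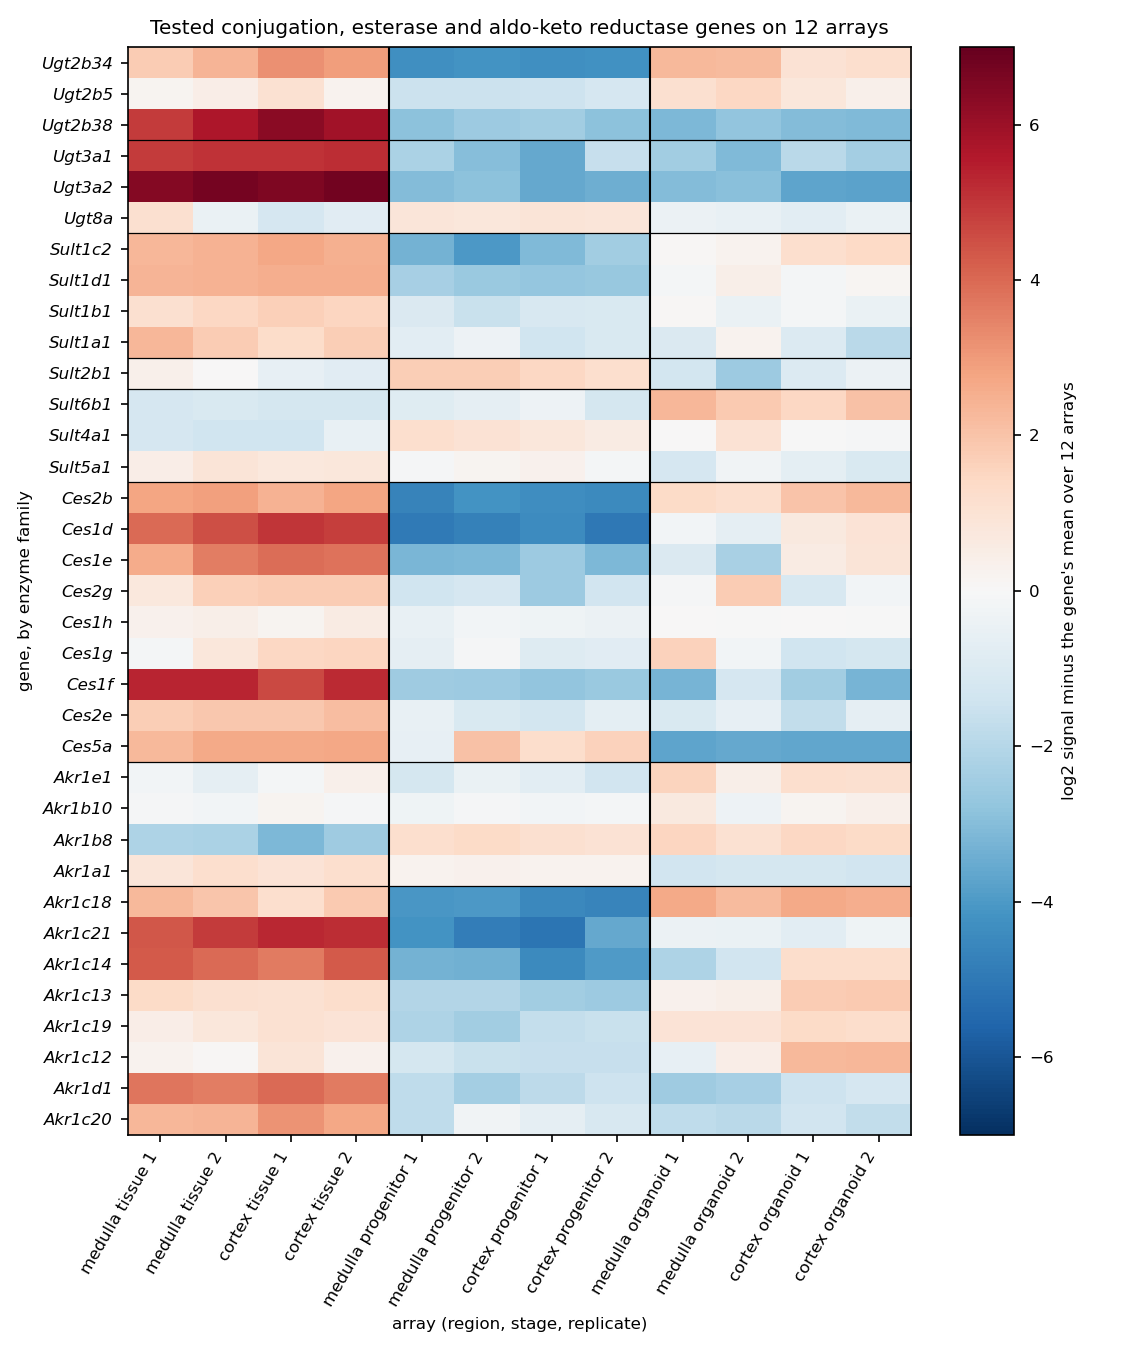
Heat map of the 35 tested genes (rows, grouped by enzyme family, lines between families) on the 12 arrays (columns, by stage, with medulla left of cortex), coloured by the log2 signal minus the gene's mean over 12 arrays. Most rows are red in tissue and blue in progenitor cells; in organoids the Akr1c18, Ces2b and Ugt2b34 rows are red again, while the Ugt3a2, Ugt2b38, Ces1f and Akr1d1 rows stay blue.

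Most of this enzyme set was lower in progenitor cells. Of 35 tested genes, 28 were lower in progenitor cells than in tissue and 4 were higher (adjusted p under 0.05), where 35.9% of all 13037 tested genes fell and 36.8% rose (72.7% passed in either direction). The median log2 difference, progenitor minus tissue, was -2.82 over the tested members and 0.03 over all tested genes. Ugt3a2, Ces1d and Akr1c21 were among the genes that fell, with progenitor signals below the array medians, where the size of a difference depends on the added offset. Akr1b8, bright in both stages, rose 12.6-fold. Every tested Akr1c and Akr1d gene (8), carboxylesterase (9), Sult1 gene (4) and glucuronosyltransferase (3) fell. Genes tested only because of tissue or organoid signals were favoured to fall here, which the p-values do not allow for. The 4 genes that rose were Akr1b8, Sult4a1, Sult2b1 and Ugt8a. With the difference taken in medulla arrays alone 25 fell and 3 rose, and in cortex arrays alone 27 fell and 4 rose.

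In organoids part of the set was high again. Relative to progenitor cells 17 of the 35 tested genes rose and 5 fell, where 28.1% of all tested genes rose and 44.3% fell (72.3% passed in either direction). The median log2 difference, organoid minus progenitor, was 0.39 for the members and -0.29 for all tested genes. Akr1c18, Ces2b and Ugt2b34 were among the genes that rose, and the sizes for Ces2b and Ugt2b34 depend on the offset, since their progenitor signals were near its floor. The 5 falls were in Ces5a, Sult2b1, Akr1a1, Ugt8a and Sult5a1. This comparison and the one with tissue share the progenitor arrays, so a high or low progenitor value moves both.

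Measured against tissue directly, organoids were lower for 23 of the 35 genes and higher for 7, where 46.6% of all tested genes fell and 33.0% rose (79.7% passed in either direction). The median log2 difference, organoid minus tissue, was -1.53 for the members and -0.29 for all tested genes. Scaling each array by its 75th percentile moved the median of all genes to -0.51, and quantile normalization moved it to -0.39. Under these scalings 25 and 24 members fell and 5 rose under each. Of all genes that passed, rises made up 34.7% and 38.5% under these scalings, against 41.5% in the main fit. The 7 genes higher in organoids were Akr1b8, Sult6b1, Sult4a1, Akr1e1, Akr1c12, Akr1c18 and Akr1c19. Counted by stage, 11 of the 35 genes exceeded the median of both arrays of a region in tissue only, 8 in tissue and organoids, and 11 in all 3 stages. There were 2 such genes each for organoids only and for tissue with progenitor cells, and 1 for progenitor cells only. A gene that was tested only because it was bright in tissue had to be lower in culture, so the counts describe the tested genes and not all 51. The p-values of such genes do not allow for this. In the same way Sult6b1 and Ugt2b5 were tested only through organoid arrays, and Sult4a1 only through progenitor arrays. The filter thus favoured their rises in those stages, and the p-values do not allow for it.

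**Figure D2:**
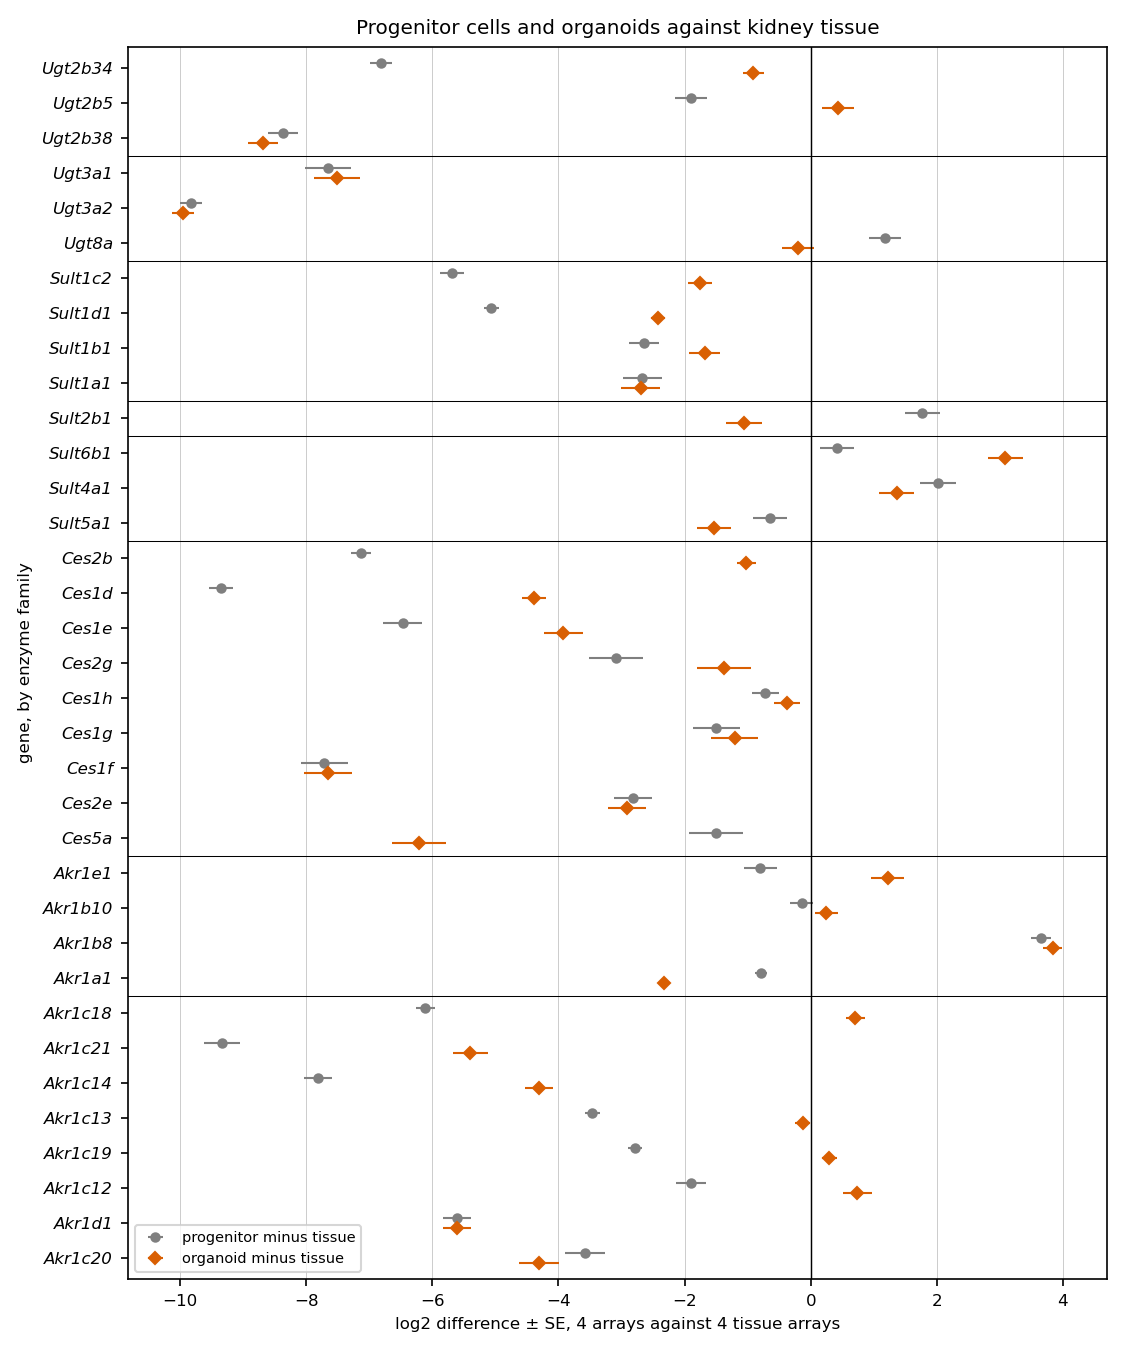
Log2 difference (horizontal axis, with SE bars) of progenitor cells from tissue (grey circles) and of organoids from tissue (orange diamonds) for the 35 tested genes, 4 arrays in each stage, grouped by enzyme family. Grey and orange lie together far to the left for Ugt3a2 (-9.82 and -9.95) and Ces1f (-7.71 and -7.65), and far apart for Akr1c18 (-6.11 and 0.71) and Ces2b (-7.13 and -1.02).

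Among the UDP-glucuronosyltransferases, Ugt2b34 and Ugt2b38, enzymes of the steroid- and drug-conjugating 2B family, were both bright in tissue and dim in progenitor cells but differed in organoids. Ugt2b34 had log2 signals of 10.25 and 10.87 in medulla and 11.65 and 11.39 in cortex tissue, 4.19 and 4.30 in medulla and 4.17 and 4.25 in cortex progenitor cells, and 10.72 and 10.68 in medulla and 9.49 and 9.64 in cortex organoids. Every organoid and tissue array lay above 9.4 and every progenitor array below 4.4. The log2 difference was -6.81 ± 0.17 (SE) for progenitor minus tissue (adjusted p = 1.22e-11) and 5.91 ± 0.17 for organoid minus progenitor (adjusted p = 1.29e-10). Against tissue, organoids differed by -0.91 ± 0.17 on average (adjusted p = 3.27e-04). That difference was 0.14 ± 0.24 in medulla (adjusted p = 0.618) and -1.95 ± 0.24 in cortex (adjusted p = 1.42e-05), and a second probe set gave -2.51 over both regions.

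Ugt2b38 had log2 signals of 11.99 and 12.76 in medulla and 13.44 and 13.02 in cortex tissue, 4.22 and 4.54 in medulla and 4.68 and 4.27 in cortex progenitor cells, and 3.97 and 4.33 in medulla and 4.09 and 4.04 in cortex organoids. The culture arrays all lay below 4.7 and the tissue arrays above 11.9. Ugt2b38 fell by 8.37 ± 0.24 in progenitor cells against tissue (adjusted p = 2.97e-11), and organoids differed from progenitor cells by -0.32 ± 0.24 (adjusted p = 0.247). Ugt2b5 averaged 6.39 ± 0.39 in tissue, 4.49 ± 0.15 in progenitor cells and 6.82 ± 0.47 in organoids (SD, n = 4 each). It fell by 1.90 ± 0.25 in progenitor cells against tissue and rose by 2.33 ± 0.25 in organoids against progenitor cells. Organoids and tissue differed by 0.43 ± 0.25 (adjusted p = 0.138), with overlapping arrays.

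The Ugt3a enzymes, which in humans use sugar donors other than UDP-glucuronate, were bright in tissue and below the array medians in culture. Ugt3a2 had log2 signals of 14.12 and 14.43 in medulla and 14.22 and 14.45 in cortex tissue, 4.67 and 4.84 in medulla and 4.14 and 4.27 in cortex progenitor cells, and 3.96 to 4.80 in organoids. The tissue arrays did not come within 9 log2 units of a culture array. Ugt3a2 differed by -9.82 ± 0.17 between progenitor cells and tissue (adjusted p = 2.00e-12), by -0.13 ± 0.17 between organoids and progenitor cells (adjusted p = 0.524) and by -9.95 ± 0.17 between organoids and tissue (adjusted p = 2.28e-12). Ugt3a1 averaged 12.83 ± 0.10 in tissue, 5.17 ± 0.84 in progenitor cells and 5.32 ± 0.49 in organoids (SD, n = 4 each). Its log2 difference was -7.66 ± 0.36 for progenitor minus tissue and -7.51 ± 0.36 for organoid minus tissue. A second Ugt3a1 probe set gave -8.27 and -8.70.

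Ugt8a, the ceramide galactosyltransferase of myelin lipid synthesis, took another course. Ugt8a had log2 signals of 11.02 and 9.43 in medulla and 8.71 and 9.06 in cortex tissue, 10.73 and 10.70 in medulla and 10.78 and 10.72 in cortex progenitor cells, and 9.48 and 9.38 in medulla and 9.14 and 9.43 in cortex organoids. It rose by 1.18 ± 0.26 in progenitor cells against tissue (adjusted p = 0.00139). The difference was 0.49 ± 0.37 in medulla alone (adjusted p = 0.268) and 1.87 ± 0.37 in cortex alone (adjusted p = 7.96e-04). Its organoid minus progenitor difference of -1.38 ± 0.26 (adjusted p = 4.50e-04) was not shared by the other Ugt8a probe set, which gave 0.46. With the mean of both probe sets the difference was -0.46 (adjusted p = 0.130).

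Among the sulfotransferases, the 4 tested Sult1 genes fell in progenitor cells and in organoids, each against tissue. Of all tested genes 35.9% and 46.6% fell in these comparisons. The other 4 tested sulfotransferases moved in several ways. Sult1d1 had log2 signals of 14.48 and 14.54 in medulla and 14.64 and 14.65 in cortex tissue, 9.75 and 9.51 in medulla and 9.38 and 9.43 in cortex progenitor cells, and 11.97 and 12.47 in medulla and 11.97 and 12.20 in cortex organoids. Sult1d1, which sulfates catecholamines and phenols in mice, stayed above the array median on all arrays. It differed by -5.06 ± 0.11 in progenitor cells against tissue (adjusted p = 6.28e-12) and by 2.64 ± 0.11 in organoids against progenitor cells (adjusted p = 2.49e-09). Organoids differed from tissue by -2.43 ± 0.11 on this probe set (adjusted p = 1.59e-09) and by -0.28 on the second Sult1d1 probe set. That second probe set gave -6.10 for progenitor minus tissue and 5.82 for organoid minus progenitor.

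Sult1c2 had log2 signals of 11.32 and 11.41 in medulla and 11.70 and 11.47 in cortex tissue, 5.65 and 4.97 in medulla and 5.91 and 6.58 in cortex progenitor cells, and 9.05 and 9.25 in medulla and 10.17 and 10.38 in cortex organoids. The 3 stages did not overlap. Sult1c2 differed by -5.69 ± 0.19 in progenitor cells against tissue (adjusted p = 1.02e-10), by 3.93 ± 0.19 in organoids against progenitor cells (adjusted p = 5.63e-09) and by -1.76 ± 0.19 in organoids against tissue (adjusted p = 3.12e-06). Sult1a1, the main phenol sulfotransferase, averaged 9.32 ± 0.42 in tissue, 6.65 ± 0.44 in progenitor cells and 6.63 ± 0.87 in organoids (SD, n = 4 each). It fell by 2.67 ± 0.31 in progenitor cells, and organoids differed from progenitor cells by -0.02 ± 0.31 (adjusted p = 0.957). Sult1b1, a thyroid hormone sulfotransferase, fell by 2.64 ± 0.24 in progenitor cells against tissue and rose by 0.96 ± 0.24 in organoids against progenitor cells. In cortex alone that rise was 0.82 ± 0.35 (adjusted p = 0.0584).

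Sult2b1, which sulfates cholesterol and pregnenolone, was highest in progenitor cells. Sult2b1 had log2 signals of 7.12 and 6.80 in medulla and 6.18 and 5.96 in cortex tissue, 8.50 and 8.50 in medulla and 8.21 and 7.94 in cortex progenitor cells, and 5.48 and 4.20 in medulla and 5.82 and 6.34 in cortex organoids. Every progenitor array lay above every tissue and organoid array. Sult2b1 rose by 1.77 ± 0.28 in progenitor cells against tissue (adjusted p = 1.17e-04) and fell by 2.83 ± 0.28 in organoids against progenitor cells (adjusted p = 2.46e-06). Against tissue, organoids differed by -2.12 ± 0.40 in medulla (adjusted p = 5.08e-04) and by 0.01 ± 0.40 in cortex (adjusted p = 0.985).

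Sult4a1, a brain sulfotransferase with no settled substrate, averaged 4.77 ± 0.41 in tissue, 6.79 ± 0.26 in progenitor cells and 6.13 ± 0.51 in organoids (SD, n = 4 each). It rose by 2.02 ± 0.28 in progenitor cells (adjusted p = 3.69e-05) and by 1.36 ± 0.28 in organoids (adjusted p = 7.54e-04), each against tissue. In cortex alone the organoid difference was 0.92 (adjusted p = 0.0557). Sult6b1 was at 7.52 and 7.04 in medulla and 6.67 and 7.26 in cortex organoids, and between 3.96 and 4.87 on the other 8 arrays. It rose by 2.67 ± 0.27 in organoids against progenitor cells and by 3.09 ± 0.27 against tissue (adjusted p = 2.96e-06 and 5.29e-07). Sult6b1 was tested only because of its organoid signals, which these p-values do not allow for. Its single probe set is of the type that the manufacturer marks as able to cross-hybridize, so the gene is uncertain. Sult5a1 fell by 0.89 ± 0.27 in organoids against progenitor cells, but in medulla alone the difference was -0.79 ± 0.38 (adjusted p = 0.0925). Progenitor cells differed from tissue by -0.64 ± 0.27 for Sult5a1 (adjusted p = 0.0507).

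All 9 tested carboxylesterases fell in progenitor cells against tissue (35.9% of all tested genes fell). The brightness filter favoured most of these falls: Ces1f, Ces1g, Ces1h and Ces2e passed it only through tissue arrays. Ces1d, Ces1e, Ces2b and Ces2g passed it only through tissue or organoid arrays. The p-values do not allow for this. In organoids 4 of the 9 rose against progenitor cells (28.1% of all tested genes rose). In medulla arrays alone the fall in progenitor cells did not pass for Ces1g (-0.65, adjusted p = 0.302) and Ces1h (-0.70, adjusted p = 0.0580), and in cortex arrays alone it did not pass for Ces5a (-1.25, adjusted p = 0.0886). Ces2b had log2 signals of 11.60 and 11.69 in medulla and 11.26 and 11.55 in cortex tissue, 4.15 and 4.64 in medulla and 4.45 and 4.33 in cortex progenitor cells, and 10.15 and 10.00 in medulla and 10.81 and 11.07 in cortex organoids. The organoid and tissue arrays lay above 9.9 and the progenitor arrays below 4.7. Ces2b, an enzyme of the Ces2 esterase family, differed by -7.13 ± 0.15 in progenitor cells against tissue (adjusted p = 5.33e-12) and by 6.11 ± 0.15 in organoids against progenitor cells (adjusted p = 6.37e-11). Organoids differed from tissue by -1.02 ± 0.15 (adjusted p = 6.52e-05). In medulla alone that difference was -1.57 ± 0.22 (adjusted p = 4.83e-05), and in cortex -0.47 ± 0.22 (adjusted p = 0.0740).

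Ces1d had log2 signals of 12.94 and 13.47 in medulla and 14.00 and 13.81 in cortex tissue, 4.02 and 4.24 in medulla and 4.59 and 3.96 in cortex progenitor cells, and 8.76 and 8.32 in medulla and 9.67 and 9.92 in cortex organoids. Ces1d, a triacylglycerol hydrolase, thus lay in organoids between its progenitor and tissue levels, with no overlap of the 3 stages. The differences were -9.35 ± 0.19 for progenitor minus tissue (adjusted p = 3.43e-12), 4.97 ± 0.19 for organoid minus progenitor (adjusted p = 1.14e-09) and -4.39 ± 0.19 for organoid minus tissue (adjusted p = 8.32e-10). The 2 other Ces1d probe sets moved the same way, by 3.19 and 2.74 for organoid minus progenitor. Ces1e, known as egasyn, which holds beta-glucuronidase in the endoplasmic reticulum, differed by -6.47, 2.55 and -3.92 (each ± 0.31) in the same 3 comparisons. Ces2g, at a mean of 8.20 ± 0.50 in tissue, 5.12 ± 0.62 in progenitor cells and 6.82 ± 1.23 in organoids (SD, n = 4 each), differed by -3.08, 1.70 and -1.38 (each ± 0.43). The Ces2g organoid minus progenitor difference was 1.27 in cortex alone (adjusted p = 0.0859), and organoid minus tissue was -0.33 in medulla alone (adjusted p = 0.635) and -1.14 without the first cortex organoid array (adjusted p = 0.0515).

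Ces1f, a second triacylglycerol hydrolase of the liver, did not return. Ces1f had log2 signals of 12.81 and 12.81 in medulla and 12.14 and 12.70 in cortex tissue, 4.99 and 4.97 in medulla and 4.74 and 4.92 in cortex progenitor cells, and 4.22 and 6.31 in medulla and 5.09 and 4.26 in cortex organoids. Except for 1 medulla organoid array at 6.31, the culture arrays lay at or below 5.09. The single Ces1f probe set is of the type that the manufacturer marks as matching several transcripts. Its signal may thus not come from Ces1f alone. Ces1f differed by -7.71 ± 0.38 in progenitor cells against tissue (adjusted p = 2.81e-09), by 0.06 ± 0.38 in organoids against progenitor cells (adjusted p = 0.893) and by -7.65 ± 0.38 in organoids against tissue (adjusted p = 2.81e-09). Ces2e likewise fell by 2.82 ± 0.30 in progenitor cells and by 2.92 ± 0.30 in organoids against tissue. Ces1h changed little: it fell by 0.72 ± 0.21 in progenitor cells against tissue (adjusted p = 0.00852), and organoids differed from tissue by -0.38 ± 0.21 (adjusted p = 0.118).

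Ces5a, a secreted esterase known in cats as the urinary protein cauxin, was alone among the tested carboxylesterases in falling in organoids against progenitor cells. Ces5a had log2 signals of 9.99 and 10.33 in medulla and 10.36 and 10.38 in cortex tissue, 7.10 and 9.73 in medulla and 8.92 and 9.32 in cortex progenitor cells, and 4.02 and 4.09 in medulla and 4.09 and 4.03 in cortex organoids. All organoid arrays lay at or below 4.09, and 1 medulla progenitor array lay below the other 3. Ces5a differed by -1.50 ± 0.42 for progenitor minus tissue (adjusted p = 0.00703) and by -4.71 ± 0.42 for organoid minus progenitor (adjusted p = 9.64e-07). The probe set is of the cross-hybridizing type. The 2 other Ces5a probe sets had means between 4.28 and 5.21 in every stage and moved by 0.19 and -0.62 for organoid minus progenitor, so the assignment of this signal to Ces5a is uncertain.

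**Figure D3:**
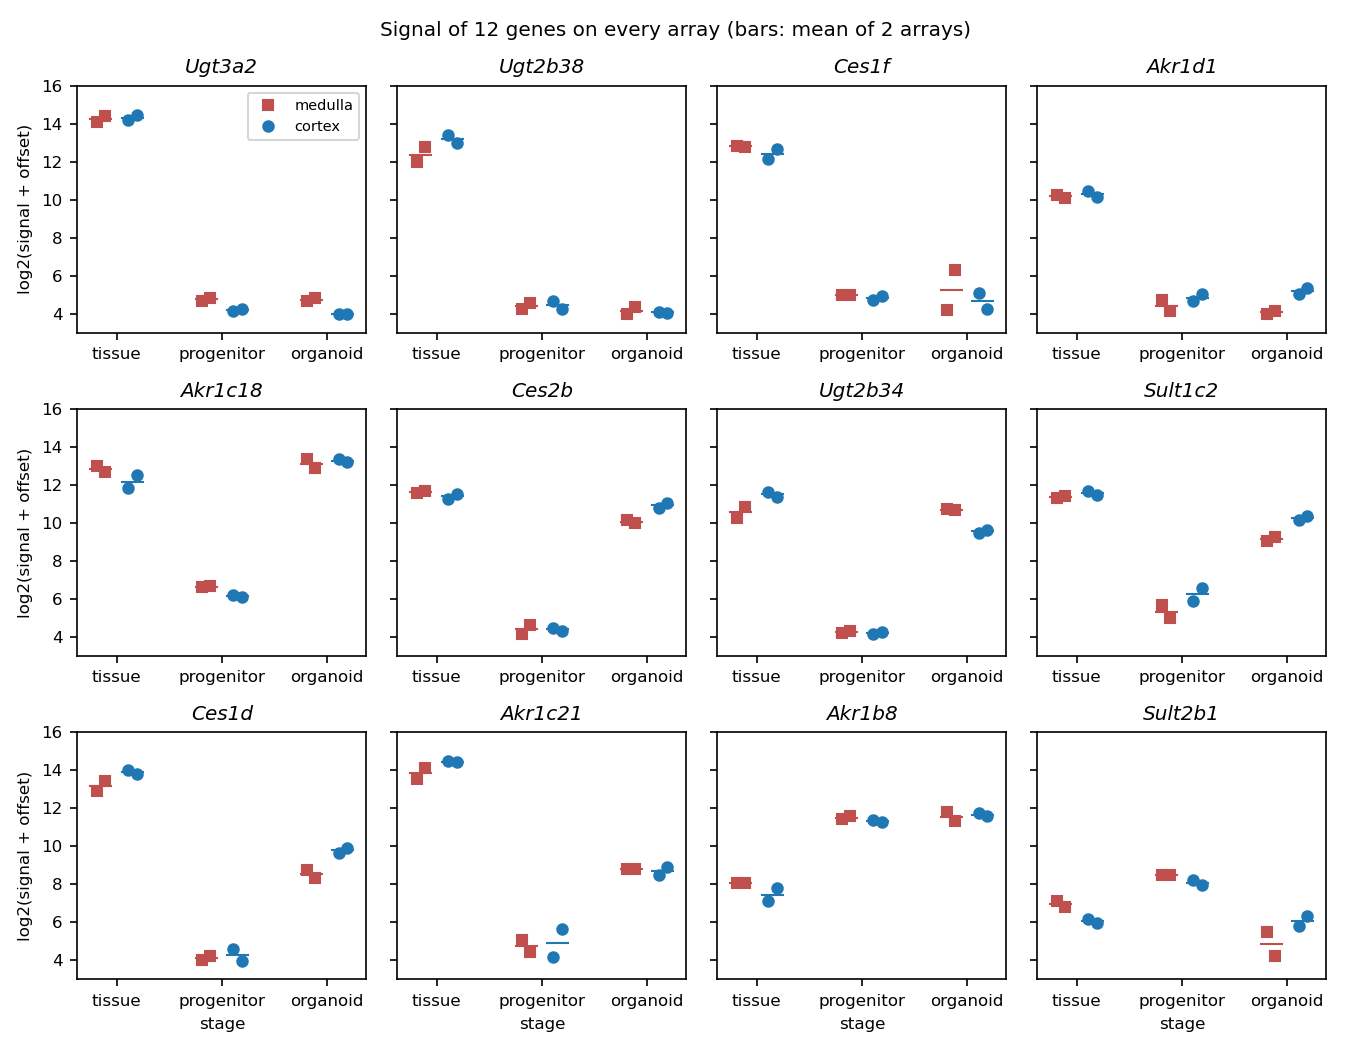
Log2 signal plus offset (vertical axis) of 12 genes on every array, by stage (horizontal axis), with medulla as red squares left of cortex as blue circles and a bar at the mean of 2 arrays. The top row shows 4 genes at 6.31 or less on every culture array, the Akr1c18 and Ces2b panels show organoids within 2 log2 units of tissue, and Akr1b8 lies above 11.2 on every culture array.

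In the aldehyde reductase group, Akr1b8 was higher in both culture stages than in tissue. Akr1b8 had log2 signals of 8.09 and 8.06 in medulla and 7.11 and 7.80 in cortex tissue, 11.42 and 11.61 in medulla and 11.41 and 11.26 in cortex progenitor cells, and 11.79 and 11.31 in medulla and 11.73 and 11.58 in cortex organoids. Every culture array lay above 11.2 and every tissue array below 8.1, all above the array medians. Akr1b8, an aldose reductase-like enzyme first known as a growth factor-induced gene, rose by 3.66 ± 0.16 in progenitor cells (adjusted p = 8.12e-10) and by 3.84 ± 0.16 in organoids (adjusted p = 5.15e-10), each against tissue. Organoids and progenitor cells differed by 0.18 ± 0.16 (adjusted p = 0.312).

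Akr1a1 had log2 signals of 15.15 and 15.49 in medulla and 15.28 and 15.51 in cortex tissue, 14.56 and 14.63 in medulla and 14.56 and 14.55 in cortex progenitor cells, and 12.96 to 13.07 in organoids. Akr1a1, the aldehyde reductase that makes gulonate for vitamin C synthesis in mice, was bright on all arrays and lower at each stage of culture. It fell by 0.78 ± 0.10 in progenitor cells against tissue (adjusted p = 1.09e-05) and by 1.55 ± 0.10 in organoids against progenitor cells (adjusted p = 3.75e-08). Its 3 other probe sets gave differences of -1.11 to -0.97 and of -0.69 to -0.64 in these comparisons. Akr1e1, a 1,5-anhydrofructose reductase, rose by 2.02 ± 0.26 in organoids against progenitor cells (adjusted p = 2.24e-05) and by 1.22 ± 0.26 against tissue (adjusted p = 9.93e-04). The other, dimmer Akr1e1 probe set did not share these rises. It gave 0.17 for organoid minus progenitor, -0.57 for organoid minus tissue and -0.74 for progenitor minus tissue. With the mean of both Akr1e1 probe sets the organoid minus tissue difference was 0.33 (adjusted p = 0.104). Progenitor cells differed from tissue by -0.80 ± 0.26 for Akr1e1 (adjusted p = 0.0159). That call was lost without 1 of 4 arrays: the second cortex progenitor (adjusted p = 0.0673), the second cortex tissue (0.0674), the first medulla progenitor (0.0759) or the first medulla tissue array (0.0615). Akr1b10, whose human namesake reduces retinal, was at 9.38 to 10.40 on all 12 arrays and passed no stage test (-0.14, 0.39 and 0.25, each ± 0.18). The 2 other Akr1b10 probe sets were higher in organoids than in tissue by 2.56 and 2.13.

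Of the 8 tested genes of the hydroxysteroid dehydrogenase group, 6 rose in organoids against progenitor cells (28.1% of all tested genes rose). Akr1c18 had log2 signals of 12.98 and 12.67 in medulla and 11.86 and 12.52 in cortex tissue, 6.62 and 6.68 in medulla and 6.21 and 6.08 in cortex progenitor cells, and 13.35 and 12.93 in medulla and 13.35 and 13.24 in cortex organoids. Akr1c18, the 20alpha-hydroxysteroid dehydrogenase that inactivates progesterone, was thus near 13 in all organoids and under 6.7 in all progenitor cells. It differed by -6.11 ± 0.15 for progenitor minus tissue (adjusted p = 1.16e-11) and by 6.82 ± 0.15 for organoid minus progenitor (adjusted p = 2.09e-11). Organoids lay 0.71 ± 0.15 above tissue (adjusted p = 8.65e-04). The difference was 0.31 ± 0.21 in medulla (adjusted p = 0.204) and 1.10 ± 0.21 in cortex (adjusted p = 5.29e-04).

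Akr1c21 had log2 signals of 13.57 and 14.12 in medulla and 14.52 and 14.42 in cortex tissue, 5.07 and 4.41 in medulla and 4.14 and 5.65 in cortex progenitor cells, and 8.82 and 8.79 in medulla and 8.50 and 8.92 in cortex organoids. Akr1c21, a mouse 17alpha-hydroxysteroid dehydrogenase, was thus partly restored, with no overlap of the 3 stages. Its differences were -9.34 ± 0.28 for progenitor minus tissue (adjusted p = 4.82e-11), 3.94 ± 0.28 for organoid minus progenitor (adjusted p = 1.38e-07) and -5.40 ± 0.28 for organoid minus tissue (adjusted p = 4.63e-09).

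Akr1c19 averaged 10.82 ± 0.26 in tissue, 8.03 ± 0.40 in progenitor cells and 11.12 ± 0.20 in organoids (SD, n = 4 each). It fell by 2.79 ± 0.11 in progenitor cells and rose by 3.09 ± 0.11 in organoids against progenitor cells. Its difference from tissue in organoids was 0.30 ± 0.11 (adjusted p = 0.0314), which did not pass after 75th percentile scaling (0.06, adjusted p = 0.671) or quantile normalization (0.23, adjusted p = 0.0873). It was also lost without the first cortex organoid array (adjusted p = 0.0859), the second cortex tissue array (0.104) or the first medulla tissue array (0.122). Akr1d1, the steroid 5beta-reductase of bile acid synthesis, fell by 5.61 ± 0.23 both in progenitor cells and in organoids against tissue. Akr1c20 fell by 3.58 ± 0.32 in progenitor cells and by 4.31 ± 0.32 in organoids against tissue, and organoids differed from progenitor cells by -0.73 ± 0.32 (adjusted p = 0.0597).

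Between regions of tissue, 0 of 35 members passed, where 0.338% of all tested genes did (0.330% higher and 0.00767% lower in medulla). With limma 9 members (and 9.07% of all genes) had an unadjusted p under 0.05, and the lowest adjusted p was 0.154. That was Ugt2b34, with a medulla minus cortex difference of -0.96 ± 0.24. Between regions of progenitor cells 0 of 35 members passed, where 0.314% of all genes did (0.276% higher and 0.0384% lower in medulla). With limma 6 members (and 4.92% of all genes) had an unadjusted p under 0.05, and the lowest adjusted p was 0.189, for Akr1c19 (-0.66 ± 0.16, medulla minus cortex). The change of the region difference between progenitor cells and tissue passed for 0 members (0.284% of all genes, 0.161% up and 0.123% down), with 3 members and 7.16% of all genes at an unadjusted p under 0.05 and a lowest adjusted p of 0.444. Without the second medulla tissue array, Ugt8a (2.13, adjusted p = 7.90e-04) and Ugt2b34 (-1.27, adjusted p = 0.0439) passed in tissue, and Ugt8a (-2.17, adjusted p = 0.00483) passed for the change of the region difference.

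In organoids the regions differed for 10 of 35 members: 8 were lower and 2 higher in medulla organoids than in cortex organoids, where 10.0% of all tested genes fell and 7.94% rose. The lower genes were Akr1c14, Ces1e, Akr1c12, Akr1c13, Ces1d, Sult1c2, Akr1d1 and Ces2b, and the higher genes were Ces1g and Ugt2b34. The share of members called, 10 of 35, compares with 18.0% of all genes. The medulla organoid replicates differed by a median of 0.414 log2 units over genes, against 0.128 to 0.226 in the other groups. Without the first cortex organoid array 5 members passed (Akr1c12, Akr1c13, Akr1c14, Ces1d and Ces1e), and without the second 5 passed (Akr1c12, Akr1c13, Akr1c14, Ces1e and Ugt2b34). Akr1d1 also did not pass without the second cortex progenitor array (adjusted p = 0.0502), either cortex tissue array (0.0542 and 0.0538) or the first medulla organoid array (0.0593).

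Akr1c14, a 3alpha-hydroxysteroid dehydrogenase, differed between the organoid regions. Akr1c14 had log2 signals of 12.72 and 12.40 in medulla and 12.07 and 12.70 in cortex tissue, 5.13 and 5.06 in medulla and 3.97 and 4.46 in cortex progenitor cells, and 6.26 and 7.08 in medulla and 9.68 and 9.64 in cortex organoids. Both medulla organoid arrays lay below both cortex organoid arrays by more than 2.5 log2 units. The organoid region difference was -2.99 ± 0.31 (adjusted p = 1.50e-04), against 0.88 ± 0.31 in progenitor cells (adjusted p = 0.628). Akr1c12 had log2 signals of 8.41 and 8.27 in medulla and 9.05 and 8.50 in cortex tissue, 6.93 and 6.60 in medulla and 6.56 and 6.57 in cortex progenitor cells, and 7.60 and 8.66 in medulla and 10.44 and 10.50 in cortex organoids. In organoids the regions did not overlap, and the difference was -2.34 ± 0.33 (adjusted p = 9.90e-04). Akr1c13 had log2 signals of 10.59 and 10.36 in medulla and 10.30 and 10.49 in cortex tissue, 7.18 and 7.21 in medulla and 6.81 and 6.68 in cortex progenitor cells, and 9.53 and 9.64 in medulla and 10.99 and 11.08 in cortex organoids. Here too the organoid regions did not overlap, and the difference was -1.44 ± 0.17 (adjusted p = 3.34e-04). A probe set annotated to both Akr1c12 and Akr1c13, not used in the tests, was at 9.09 and 10.02 in medulla organoids and at 11.31 and 11.40 in cortex organoids. With a probe set shared by both genes on the array, the signals of Akr1c12 and Akr1c13 may not be fully separate.

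The change of this region difference between progenitor cells and organoids was tested as an interaction, and 3 of 35 members passed, all 3 downwards, where 4.10% of all tested genes did (2.48% down and 1.63% up). These were Akr1c14 (-3.87 ± 0.44, adjusted p = 0.00177), Akr1c12 (-2.54 ± 0.47, adjusted p = 0.0137) and Akr1c13 (-1.90 ± 0.24, adjusted p = 0.00292). The size for Akr1c14 depends on the offset, since its progenitor signals were below the array medians. It was -5.72 with an offset of 1 and -2.73 with the median signal as offset, and passed with both. Akr1c12 did not pass without 1 of 5 arrays: either cortex progenitor array (adjusted p = 0.0638 for each), the first medulla progenitor array (0.0684), or the first (0.0536) or second (0.0614) cortex organoid array. Without the first medulla organoid array 6 members passed, Ces1d, Ces1e and Sult2b1 being added, and without the second 5 passed, Ces1g and Ugt2b34 being added.

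The remaining organoid region differences were in 4 carboxylesterases, a sulfotransferase, a glucuronosyltransferase and Akr1d1. Ces1e was at 6.18 and 4.89 in medulla organoids and 7.78 and 8.07 in cortex organoids, a difference of -2.39 ± 0.44 (adjusted p = 0.00382). Ces1d differed by -1.25 ± 0.27 (adjusted p = 0.00824), Sult1c2 by -1.13 ± 0.27 (adjusted p = 0.0140), Ces2b by -0.86 ± 0.22 (adjusted p = 0.0192) and Akr1d1, at 5.34 or less on every organoid array, by -1.12 ± 0.32 (adjusted p = 0.0342). The Akr1d1 value rests on signals below the array medians: it was -0.35 with the median signal as offset (adjusted p = 0.213) and -3.15 with an offset of 1, and it did not pass without the brightness filter (adjusted p = 0.0616) or with the mean of both probe sets (0.0577). Ugt2b34 was at 10.72 and 10.68 in medulla organoids and 9.49 and 9.64 in cortex organoids, a difference of 1.13 ± 0.24 (adjusted p = 0.00774). Ces1g, an esterase of liver lipid metabolism, was at 7.16 and 5.36 in medulla organoids and 4.13 and 4.30 in cortex organoids, a difference of 2.05 ± 0.53 (adjusted p = 0.0208). That size depends on the offset, since the cortex organoid signals were near its floor: 3.77 with an offset of 1 and 0.91 with the median signal as offset. Without the first medulla organoid array the Ces1g difference was 1.14 (adjusted p = 0.108). Akr1c18 (-0.15 ± 0.21, adjusted p = 0.667) and Akr1c21 (0.09 ± 0.40, adjusted p = 0.905) did not pass.

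Cell type markers moved between the organoid regions as well, where 7.94% of all tested genes were higher and 10.0% lower in medulla organoids. Of 11 tested proximal tubule markers 1 was higher and 2 were lower. Of 6 loop of Henle markers 2 were higher and 1 was lower. The 4 distal tubule markers summed to 1424.5 to 1429.6 in medulla and 678.5 to 785.3 in cortex organoids, and 1 was higher and 0 lower. Of 9 fibroblast markers 8 were higher in medulla organoids, and their summed unlogged signal was 8189 to 8298 in medulla organoids, against 2076 to 2562 in cortex organoids. Of these markers, 7 exceeded both array medians in medulla organoids and 3 in cortex organoids. In progenitor cells the fibroblast sum was 12134 to 13980 in medulla and 9774 to 9978 in cortex. The 5 urothelium markers summed to 1423 to 1801 in medulla organoids and 5360 to 5984 in cortex organoids, with 1 marker above the median in each. Among these, Upk1a fell (-1.89), Krt5 rose (1.53) and 3 did not pass. The 4 intercalated cell markers measured summed to 3604 to 3894 in medulla organoids and 6669 to 6777 in cortex organoids. Of these 4 markers 2 exceeded both array medians in each region. Only 1 of them passed, lower in medulla organoids, and their median log2 difference was -0.20. Endothelial markers, 6 in all, were not above the median in organoids of either region. The part of these cells in the enzyme differences was not tested.

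The 3 genes whose region difference changed lie in the Akr1c cluster on mouse chromosome 13, where RefSeq (GRCm38.p6) places Akr1c14, Akr1c18, Akr1c13, Akr1c19, Akr1c12, Akr1c6, Akr1c20, Akr1c21 and Akr1e1 in that order among the members. The genes with an organoid region difference alternate with Akr1c18 and Akr1c19, whose organoid region differences were -0.15 ± 0.21 and -0.35 ± 0.16 (adjusted p = 0.667 and 0.168). The RefSeq promoter sequences of these 5 neighbours are given because they can be read beside that alternation: 250 bases before to 50 bases after the start, 5' to 3' on the gene's own strand. They lie at chr13:4059341-4059640 (Akr1c14, plus strand), chr13:4150597-4150896 (Akr1c18, minus strand), chr13:4190937-4191236 (Akr1c13, plus strand), chr13:4233490-4233789 (Akr1c19, plus strand) and chr13:4279350-4279649 (Akr1c12, minus strand). Capitals mark the letters CATTAG.
Akr1c14: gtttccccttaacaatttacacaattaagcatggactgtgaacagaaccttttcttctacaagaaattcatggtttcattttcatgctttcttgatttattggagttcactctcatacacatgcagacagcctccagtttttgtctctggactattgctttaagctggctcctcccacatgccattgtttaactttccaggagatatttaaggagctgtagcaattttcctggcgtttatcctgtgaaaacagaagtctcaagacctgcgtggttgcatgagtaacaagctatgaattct
Akr1c18: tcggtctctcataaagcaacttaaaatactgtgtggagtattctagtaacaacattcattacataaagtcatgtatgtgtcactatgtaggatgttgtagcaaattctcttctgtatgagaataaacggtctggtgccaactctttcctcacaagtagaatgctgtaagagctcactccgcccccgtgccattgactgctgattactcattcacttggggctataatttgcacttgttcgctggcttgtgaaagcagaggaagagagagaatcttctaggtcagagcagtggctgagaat
Akr1c13: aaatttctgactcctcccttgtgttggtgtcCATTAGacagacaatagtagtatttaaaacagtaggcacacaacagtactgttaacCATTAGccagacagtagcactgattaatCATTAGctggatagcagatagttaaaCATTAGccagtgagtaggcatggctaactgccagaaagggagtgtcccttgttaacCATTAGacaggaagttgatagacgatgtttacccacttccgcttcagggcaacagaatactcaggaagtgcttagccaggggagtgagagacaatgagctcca
Akr1c19: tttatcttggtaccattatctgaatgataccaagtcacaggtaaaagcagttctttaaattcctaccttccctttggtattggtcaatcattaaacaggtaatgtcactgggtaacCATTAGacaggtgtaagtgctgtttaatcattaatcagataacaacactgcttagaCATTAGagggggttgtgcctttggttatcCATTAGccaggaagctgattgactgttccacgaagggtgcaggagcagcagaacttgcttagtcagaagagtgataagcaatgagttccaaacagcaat
Akr1c12: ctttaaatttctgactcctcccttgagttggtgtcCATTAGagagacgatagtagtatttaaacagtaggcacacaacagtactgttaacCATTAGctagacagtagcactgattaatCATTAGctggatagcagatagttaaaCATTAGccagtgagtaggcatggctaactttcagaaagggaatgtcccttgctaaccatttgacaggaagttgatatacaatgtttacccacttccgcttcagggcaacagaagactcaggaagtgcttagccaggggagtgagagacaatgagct

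The Akr1c12 and Akr1c13 promoters were 93.4% identical (284 of 304 aligned columns), and each was 58.7% and 59.8% identical to that of Akr1c19. Every pair that included Akr1c14 or Akr1c18 was at most 55.6% identical. CATTAG, counted on either strand (CTAATG on the other), occurred 5 times in the Akr1c13 promoter, 4 times in that of Akr1c12 and 3 times in that of Akr1c19, and did not occur in those of Akr1c14 and Akr1c18. Of 32851 mouse promoters of this length, 7.36% held it at least once and 9 (0.0274%) held 3 or more copies. These letters were chosen after the sequences had been seen. They mark 2 genes with an organoid region difference and 1 without, and are not in the window of Akr1c14, which also had one.

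**Figure D4:**
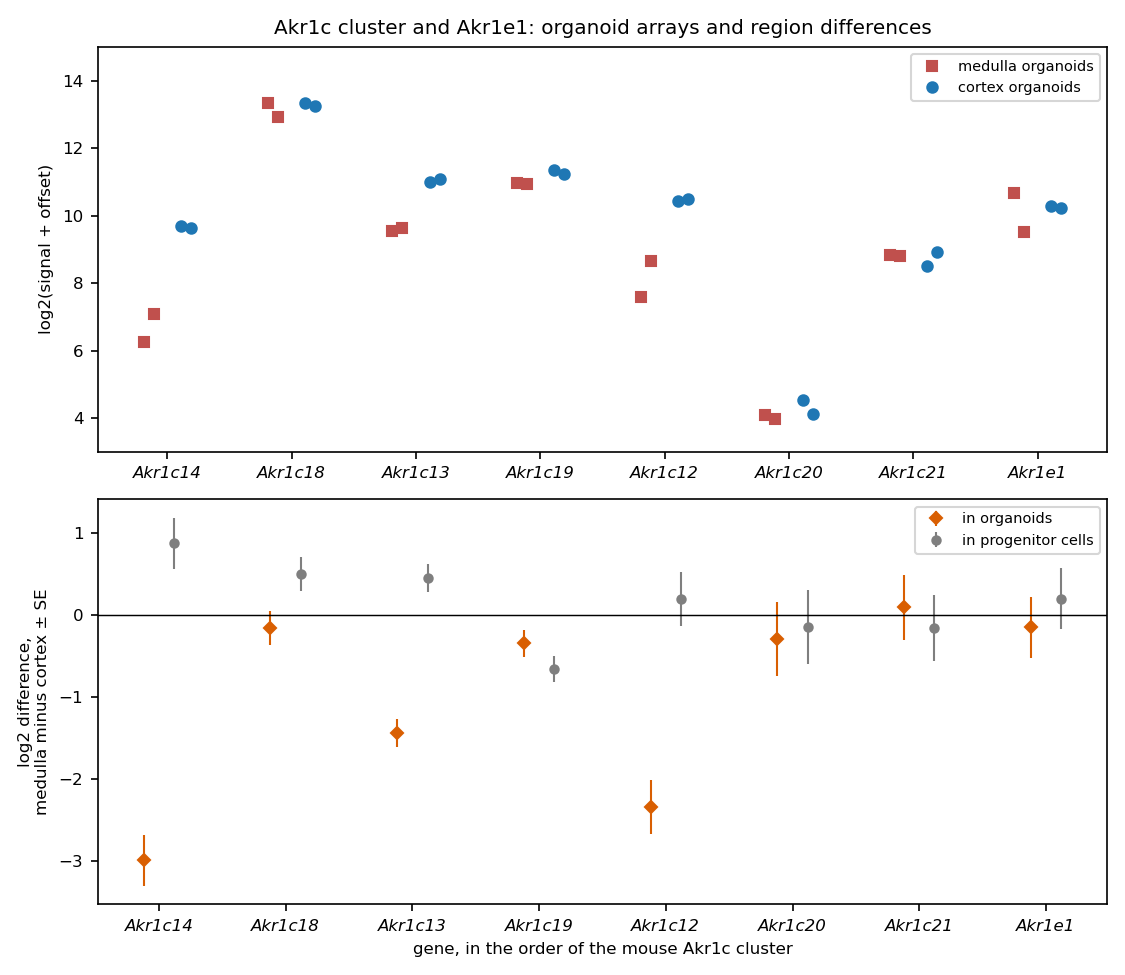
Top: log2 signal plus offset of the tested genes of the Akr1c cluster and Akr1e1 on the organoid arrays (medulla as red squares, cortex as blue circles). Bottom: medulla minus cortex difference with SE in organoids (orange diamonds) and progenitor cells (grey circles). Genes run in chromosome order; Akr1c14, Akr1c13 and Akr1c12 lie at -2.99, -1.44 and -2.34 in organoids, with Akr1c18 (-0.15) and Akr1c19 (-0.35) between them.

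Against tissue, values within each region are given for these 3 genes, and whether the organoid minus tissue difference itself differed between regions was not tested. Akr1c12 differed from tissue by -0.21 ± 0.33 in medulla (adjusted p = 0.582) and by 1.69 ± 0.33 in cortex (adjusted p = 6.12e-04). Over both regions its difference was 0.74 ± 0.23 (adjusted p = 0.0114), and it did not pass after quantile normalization (0.51, adjusted p = 0.0578), 75th percentile scaling (0.51, adjusted p = 0.0525) or without the second cortex tissue array (0.60, adjusted p = 0.0559). Akr1c13 differed from tissue by -0.89 ± 0.17 in medulla organoids (adjusted p = 5.77e-04) and by 0.64 ± 0.17 in cortex organoids (adjusted p = 0.00511), so that its mean difference was -0.12 ± 0.12 (adjusted p = 0.356). Akr1c14 differed from tissue by -5.89 ± 0.31 in medulla organoids and by -2.73 ± 0.31 in cortex organoids (adjusted p = 1.56e-08 and 8.23e-06). Against progenitor cells, Akr1c14, Akr1c13 and Akr1c12 rose by 3.51 ± 0.22, 3.34 ± 0.12 and 2.64 ± 0.23 over both regions.

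Short motifs were also counted in the promoters of 44 of the 51 genes that RefSeq's table covers, on both strands. The antioxidant response element core, TGACNNNGC, was in 2 of 44 members (Akr1c19 and Akr1cl), against 14.0% of all genes. The xenobiotic response element core, GCGTG, was in 6 of 44 (Akr1b8, Akr1c14, Sult1b1, Sult1d1, Sult2b1 and Ugt8a), against 35.2% of all genes. An AP-1 site, TGANTCA, was in 8 of 44, against 8.97%, and TATAAA was in 8 of 44, against 15.7%. A match or its lack describes only this window.

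Genes that supply and use the same pathways were also followed. All list counts from here on stand beside the shares of all tested genes. In progenitor cells against tissue 35.9% of all tested genes fell and 36.8% rose. In organoids 44.3% fell and 28.1% rose against progenitor cells, and 46.6% fell and 33.0% rose against tissue. With most genes passing in each comparison, a count in a short list says little by itself. For UDP-glucuronate supply 7 of 8 listed genes were tested: in progenitor cells against tissue 3 fell and 1 rose, in organoids against progenitor cells 6 fell and 0 rose, and in organoids against tissue 5 fell and 1 rose. Ugdh, which makes UDP-glucuronate, differed by -1.19 ± 0.09, -0.63 ± 0.09 and -1.82 ± 0.09 in these 3 comparisons. Slc35d1, which carries it into the endoplasmic reticulum, differed by -1.87 ± 0.15, -1.41 ± 0.15 and -3.28 ± 0.15.

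Of the 10 genes of sulfate and PAPS supply, 6 fell and 0 rose in progenitor cells against tissue, 4 fell and 4 rose in organoids against progenitor cells, and 8 fell and 1 rose in organoids against tissue. Papss2, a PAPS synthase, differed by -4.72 ± 0.12, -0.72 ± 0.12 and -5.44 ± 0.12. Slc13a1, the renal sodium-sulfate cotransporter, fell by 8.19 ± 0.23 in progenitor cells against tissue, and organoids differed from progenitor cells by 0.01 ± 0.23 (adjusted p = 0.970). Sult1c2 and Sult1d1 rose in organoids against progenitor cells while Papss2 fell.

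Transporters that take up substrates or export conjugates were tested for 12 of 13 listed genes: 8 fell and 3 rose in progenitor cells, and 9 fell and 2 rose in organoids, each against tissue. In organoids against progenitor cells 3 fell and 2 rose. Abcc2, the apical conjugate exporter, fell by 6.47 ± 0.24 in progenitor cells and by 6.11 ± 0.24 in organoids, each against tissue. Abcc3, a basolateral exporter, fell by 2.13 ± 0.14 in progenitor cells against tissue and rose by 2.31 ± 0.14 in organoids against progenitor cells, and organoids differed from tissue by 0.18 ± 0.14 (adjusted p = 0.261). A list of hydrolases held Gusb, Sts, Arsa, Arsb, Arsk, Manba and Neu1, not all of which act on glucuronide or sulfate conjugates. Of these 7 genes 6 were tested. In progenitor cells against tissue 4 fell and 2 rose, and in organoids against tissue 4 fell and 0 rose. In organoids against progenitor cells 4 of these fell and 1 rose. Gusb, beta-glucuronidase, was among the genes that rose in progenitor cells (1.08 ± 0.11, adjusted p = 3.22e-06).

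Of 14 listed xenobiotic and nuclear receptors 9 were tested: 8 fell and 1 rose in progenitor cells against tissue, 2 fell and 4 rose in organoids against progenitor cells, and 6 fell and 1 rose in organoids against tissue. Hnf4a, a transcription factor of proximal tubule and liver, differed by -8.16 ± 0.43 in progenitor cells and by -8.34 ± 0.43 in organoids, each against tissue. Esr1, the oestrogen receptor, fell by 3.01 ± 0.22 in progenitor cells against tissue and rose by 3.47 ± 0.22 in organoids against progenitor cells. Among 12 of 13 listed genes of Nrf2 and its targets, 6 fell and 6 rose in progenitor cells against tissue, 3 fell and 7 rose in organoids against progenitor cells, and 4 fell and 5 rose in organoids against tissue. Nqo1, a quinone reductase, differed by -2.74 ± 0.19, 1.90 ± 0.19 and -0.83 ± 0.19. Hmox1, heme oxygenase 1, differed by 2.88 ± 0.12, -0.16 ± 0.12 (adjusted p = 0.249) and 2.72 ± 0.12.

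Steroid and prostaglandin partners of the Akr1c enzymes were tested for 12 of 18 listed genes: 8 fell and 4 rose in progenitor cells against tissue, 3 fell and 7 rose in organoids against progenitor cells, and 7 fell and 5 rose in organoids against tissue. Hsd11b1, which regenerates active glucocorticoid, differed by -3.62 ± 0.29, 2.93 ± 0.29 and -0.69 ± 0.29 (adjusted p = 0.0421 for the last). Hpgd, which degrades prostaglandins, differed by -6.44 ± 0.28, 1.20 ± 0.28 and -5.24 ± 0.28. Ptgs2, the inducible cyclooxygenase, differed by 6.11 ± 0.14, -1.34 ± 0.14 and 4.77 ± 0.14. Of 15 listed aldehyde and polyol partners 12 were tested, of which 9 fell and 3 rose in progenitor cells against tissue, 2 fell and 9 rose in organoids against progenitor cells, and 7 fell and 3 rose in organoids against tissue. Adh1, an alcohol dehydrogenase, differed by -7.98 ± 0.29, 2.93 ± 0.29 and -5.06 ± 0.29, and Aldh1a1, a retinal dehydrogenase, by -2.41 ± 0.20, 2.15 ± 0.20 and -0.25 ± 0.20 (adjusted p = 0.271 for the last).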

How the data were processed

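RNA of 12 samples was hybridised to Affymetrix 3' arrays after RNeasy purification and 3' IVT PLUS labelling, per the labels' protocols. The authors deposited 1 log2 signal for each probe set, made with MAS5 per the submitters' processing notes, and its version was not given in the sources used here. They show a trimmed mean of 500 on every array after 2% was left out at each end. From 45101 probe sets 64 controls were left out. Symbols come from the platform annotation, and 34945 other probe sets carried 1 symbol. Current names and neighbours come from RefSeq GRCm38.p6, which may not be the build of the array's design.

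Deposited log2 values were unlogged, the 25th percentile of all values (15.1473) was added, and log2 was taken again, which understates changes of dim genes. Each gene was represented by its brightest probe set (mean over 12 arrays). Of 18193 genes, 13037 passed the brightness filter (over the median of both arrays in 1 or more groups). All 12 arrays entered 1 model with 6 group means in limma 3.58.1 (R 4.3.3; eBayes with trend, 6 residual degrees of freedom, median prior 5.67). P-values were two-sided and adjusted by Benjamini-Hochberg across the tested genes, with a threshold of 0.05. Stage differences average the cortex and medulla differences. SE are the model's. Precision is limited by the small number of arrays. The script was tested on simulated data. The members, gene lists and tests were chosen with earlier results of these data known. Full statistics went, per comparison, to the 8 largest rises and falls (5 for regions) that passed, changed at least 2-fold and had arrays of both sides apart; other members are given by values. Promoters were compared with Python 3.11.15 and Biopython 1.88. Stage differences within 1 region were added after the data were seen. Probe sets shared by several genes were left out of the tests.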

Additional observations from a re-analysis of the deposited data

Results flagged for a closer look

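For 3 genes of the Akr1c cluster the difference between medulla and cortex was itself different in organoids and in progenitor cells, tested as an interaction across all genes with limma. Akr1c14 changed by -3.87 ± 0.44 log2 units (SE, adjusted p = 0.00177), from organoid arrays at 6.26 and 7.08 in medulla and 9.68 and 9.64 in cortex, and progenitor arrays at 5.13 and 5.06 in medulla and 3.97 and 4.46 in cortex. The size for Akr1c14 depends on the offset, at -5.72 with an offset of 1 and -2.73 with the median signal as offset. Akr1c12 changed by -2.54 ± 0.47 (adjusted p = 0.0137) and Akr1c13 by -1.90 ± 0.24 (adjusted p = 0.00292). Among all tested genes 4.10% passed this test. Of 9 fibroblast markers 8 were higher in medulla organoids than in cortex organoids, and of 5 urothelium markers 1 was higher (Krt5) and 1 lower (Upk1a); their part in these differences was not tested.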

How the results depend on the processing

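Across 1015 values of 45 named differences under the alternatives, 997 kept their direction and their side of the threshold, 18 kept the direction without passing and 0 changed direction. These 45 were chosen as large differences that passed in the main fit, which favoured such stability. Calls outside the 45 are not counted here, and some were lost, such as Akr1c19 for organoid minus tissue and Akr1d1 between organoid regions. Losing 1 array moved the number of members called to between 31 and 33 for progenitor minus tissue, 22 and 25 for organoid minus progenitor, 28 and 31 for organoid minus tissue, 5 and 14 for the organoid region difference, 0 and 2 for the tissue region difference, and 2 and 6 for the change of region difference from progenitor cells to organoids. It gave 0 and 1 for the change from tissue to progenitor cells and 0 throughout for progenitor regions. A fit of only the groups compared left 4 members in the organoid region comparison (Akr1c12, Akr1c13, Akr1c14 and Ugt2b34), with fewer arrays behind the spread. In that fit Ces1e (adjusted p = 0.0899), Ces1d (0.0930), Ces1g (0.144), Ces2b (0.0876), Sult1c2 (0.0687) and Akr1d1 (0.141) did not pass. With an offset of 1, Ces1d (0.248) and Ces2b (0.175) did not pass there. Replicate numbers entered as a replicate block gave 11 members for the organoid region difference in place of 10, and 32, 22 and 30 for the stage differences; no number of calls moved by over 1.5 times. The numbers share only a label: over 15 group pairs the correlation of replicate differences was -0.138 to 0.057. Without a brightness filter all 51 members were tested. In progenitor cells against tissue 34 fell and 4 rose (28.7% and 26.7% of 18193 genes), in organoids against progenitor cells 7 fell and 18 rose (36.4% and 22.2%), and in organoids against tissue 30 fell and 7 rose (41.4% and 25.8%). Dim signals limit the 16 members that the filter leaves out.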

Other observations

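The Ugt1a genes share their last exons, and 3 probe sets are each annotated to the same 8 Ugt1a genes, so none entered the tests. The first lay between 14.31 and 14.74 in tissue. It lay between 10.90 and 11.30 in progenitor cells, and between 12.96 and 13.21 in organoids. Another ranged over 13.94 to 14.44 (tissue), 9.91 to 10.49 (progenitor cells) and 12.57 to 12.91 (organoids). The third ranged over 14.73 to 15.10 (tissue), 12.01 to 12.53 (progenitor cells) and 13.29 to 13.49 (organoids). On each of the 3, every organoid array lay between the progenitor and the tissue arrays. A probe set shared by Ces3a and Ces3b lay between 4.04 and 4.39 in tissue and progenitor cells, at 5.43 and 5.39 in medulla organoids and at 4.65 and 4.15 in cortex organoids. Which of the genes gave these signals was not tested.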
